A study of Zea mays with 45 samples.

Results

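The base of the growing maize leaf, where cells divide, was compared between the end of the day and a point 14 h into an extended night. Both samplings fell at the same clock hour. The 14 h count began when the light would normally have come on, so these plants had been in the dark for 24 h in total, the normal 10 h night included. The comparison rests on 6 of the 45 arrays of the study, 3 from each time, chosen by their labels for zone and time and not by any measured value. The study sampled 3 zones of the leaf at 5 times on the Affymetrix maize array, and 42 of its arrays hold values.

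All plants were of the genotype SL (KWS, Einbeck) and grew with 14 h of light at 700 µE of photosynthetically active radiation and 10 h of dark. Temperature was 25 °C by day (given as effectively 29 °C) and 22 °C by night, and humidity was 70%. Plants of the end-of-day group (ED) were harvested at the close of a normal light period. Plants of the 14 h group (ExN14h) received no light after their last normal day. The collar at the base of the blade, the ligule, marks the origin of the division zone, which was cut from 0 to 1.5 cm beyond it. Since 5 plants were pooled for every array, the spread between arrays is that between pools. In such whole tissue, fewer cells of a type and less RNA per cell cannot be told apart.

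A leaf base imports its carbon as sucrose from mature tissue, and when the night outlasts the starch stored by day, that supply runs down. Plant cells short of sugar are known to draw on amino acids, lipids and cell walls for carbon and to store the released nitrogen as asparagine. Energy-sensing kinases of the SnRK1 family and the bZIP factors they act on are known to direct much of that switch, while the TOR kinase and sugar supply promote division and growth.

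The interval from the end of the day to 14 h of extended night holds the normal 10 h night too. Over it 7822 of 17555 probe sets changed in the division zone (44.6% called, meaning a Benjamini-Hochberg adjusted p under 0.05 in limma). Of these, 3614 were higher (20.6% of all tested) and 4208 lower (24%), and 834 rose (4.75%) and 701 fell (3.99%) by at least 1 on the log2 scale, which is a doubling or halving. The median difference over all probe sets was −0.05. Of the 1108 named genes, each by its brightest probe set, 47.2% were called, 20.6% higher and 26.6% lower. Values below are log2 intensities after RMA, and differences are log2 differences ± SE with n = 3 and 3 arrays. The SE and p use the spread of each probe set over all 15 groups of the study. Without replicate 2 of the 14 h group the count was 6589, the lowest of the fits that left out 1 of the 6 arrays.

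The arrays of a group were alike. Correlations over all tested probe sets ran from 0.997 to 0.998 within the end-of-day group, from 0.996 to 0.998 within the 14 h group and from 0.947 to 0.964 between them. On the first principal component of the 15 division zone arrays (64% of the variance) the end-of-day arrays lay between −33.2 and −32.4 and the 14 h arrays at 50.1, 64.1 and 46.6. The end-of-night arrays lay close to the end-of-day arrays, those of 6 h at −10.5, −8.1 and 1.3, and those of 24 h at 7.3, 26 and 13.2, so the 14 h arrays stood farthest from the end of the day on this component. Replicate 2 of 14 h lay farther out than the other 2, and its array weight was 0.782 against 1.94 and 1.74.

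**Figure D1:**
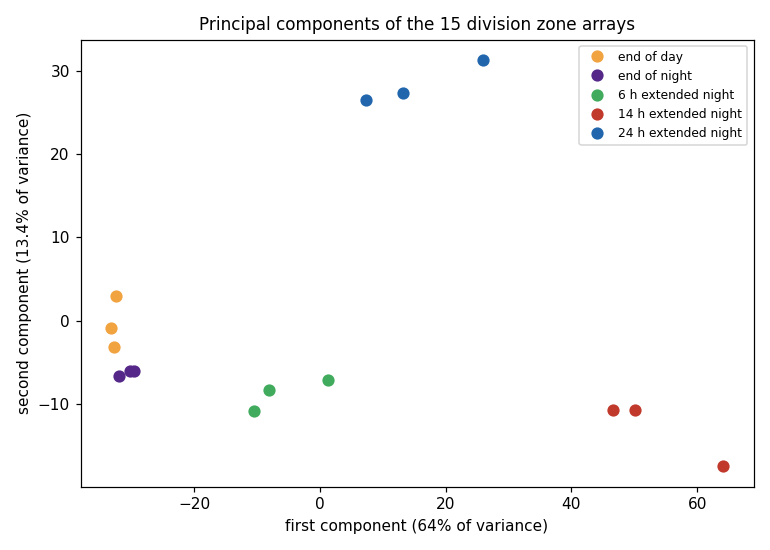
First and second principal components (no unit) of the 15 division zone arrays, computed over the tested probe sets. Each point is 1 array, coloured by time; the 3 arrays of 14 h, at 46.6 to 64.1 on the horizontal axis, lie farthest from the 3 end-of-day arrays at −33.2 to −32.4.

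The tissue carried the markers of its label. At the end of the day the cyclin gene *cyc1* stood at 9.26 here and 5.79 in the mature zone, the replication clamp *pcna1* at 11.31 and 7.49, and the young-leaf factor *yab14* at 10.22 and 5.09. Less clear was the tubulin *tub4*, at 8.99 and 8.73. The photosynthesis genes of mature cells were lower here, with *pep1* at 6.22 against 14.33 in the mature zone and *rca1* at 4.74 against 12.43. Others were not faint: *ssu1* stood at 8.94 against 13.24, *me3* at 7.77 against 13.96 and *lhcb6* at 7.73 against 13.68. The meristem gene *kn1* was below the dim level in both (5.57 and 5.54). That level, 6.06, is the 95th percentile of 66 reporter probe sets, made for foreign genes such as selection markers. Sizes of changes are uncertain where a group lies below it. Of 7 markers of mature mesophyll and bundle sheath cells, 0 were called higher and 3 lower at 14 h. Of all probe sets 20.6% were higher and 24% lower. One of the falls was that of *lhcb6*, whose 3 other probe sets were not called (−0.23 to −0.15). The summed level of the 7 markers was 10.20 to 10.29 in the end-of-day arrays and 9.80 to 10.07 in the 14 h arrays. Between 1 and 3 of the 7 lay below the dim level on each array, *rca1* among them in every one. The actin control probe sets differed between their 3′ and 5′ ends by 1.63 to 2.11 in the end-of-day arrays and by 2.19 to 2.55 in the 14 h arrays, and those of elongation factor 1α by 1.25 to 1.35 and 1.08 to 1.26. The part of either in the results was not tested. Among those 66 reporters 0 rose and 1 fell, and none differed by more than 0.31.

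Genes that release nitrogen from amino acids and store it showed the largest named rise. All 3 genes on that list rose, against 20.6% of all probe sets. Asparagine synthetase, *asn1*, which moves nitrogen onto asparagine, was at 6.80, 6.97 and 6.79 in the end-of-day arrays and at 13.02, 13.41 and 12.73 in the 14 h arrays. The lowest 14 h array thus lay far above the highest end-of-day array, and the rise was 6.20 ± 0.48 (73.5-fold, adjusted p = 2.4e-12). A second, dimmer probe set of *asn1* was also called higher but rose by only 1.51 ± 0.19, so the size depends on the probe set. The bifunctional enzyme of lysine breakdown, *lkrsdh1*, went from 7.09, 7.01 and 7.03 to 12.17, 12.58 and 11.84, a rise of 5.15 ± 0.27 (adjusted p = 2.6e-16). Glutamate dehydrogenase, *gdh1*, went from 6.94, 6.86 and 6.79 to 10.71, 10.81 and 10.50, a rise of 3.81 ± 0.24 (adjusted p = 1.6e-14). The groups did not overlap for any of the 3 genes; arrays of the 2 groups were separate in this way for 62.7% of all probe sets (27.4% with 14 h above, 35.2% with it below).

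Between 6 and 14 h all 3 genes rose (16.4% of all probe sets did). From the end of the night to 6 h 2 of the 3 were called higher (3.14% of all probe sets were). At 6 h *lkrsdh1* stood at 9.56, 9.72 and 10.62 and had risen by 2.97 from the end of the night, whereas *asn1* stood at 7.95, 8.19 and 8.98, a difference of 1.44 that was not called (adjusted p = 0.096). Between 6 and 14 h *asn1* then rose by 4.68 ± 0.48 and *lkrsdh1* by 2.23 ± 0.27. All 3 were lower again at 24 h than at 14 h (12.4% of all probe sets were), *asn1* at 9.87, 10.53 and 10.41. That sampling was 10 h later and so fell where a normal night would end.

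The glyoxylate cycle, which turns carbon from fatty acids into sugar precursors, was represented by 1 gene for each of its own enzymes. Malate synthase, *mas1*, went from 6.26, 6.58 and 6.24 to 10.33, 11.62 and 10.40, a rise of 4.42 ± 0.37 (adjusted p = 1.4e-11). At 6 h it still stood at 6.37, 6.53 and 6.45, and at 24 h it was back at 6.66, 7.45 and 7.14. Isocitrate lyase, *ICL*, read 6.64, 6.50 and 6.49 at the end of the day and 6.52, 6.41 and 6.53 at 14 h, overlapping groups with a difference of −0.06 ± 0.10 (adjusted p = 0.67).

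**Figure D2:**
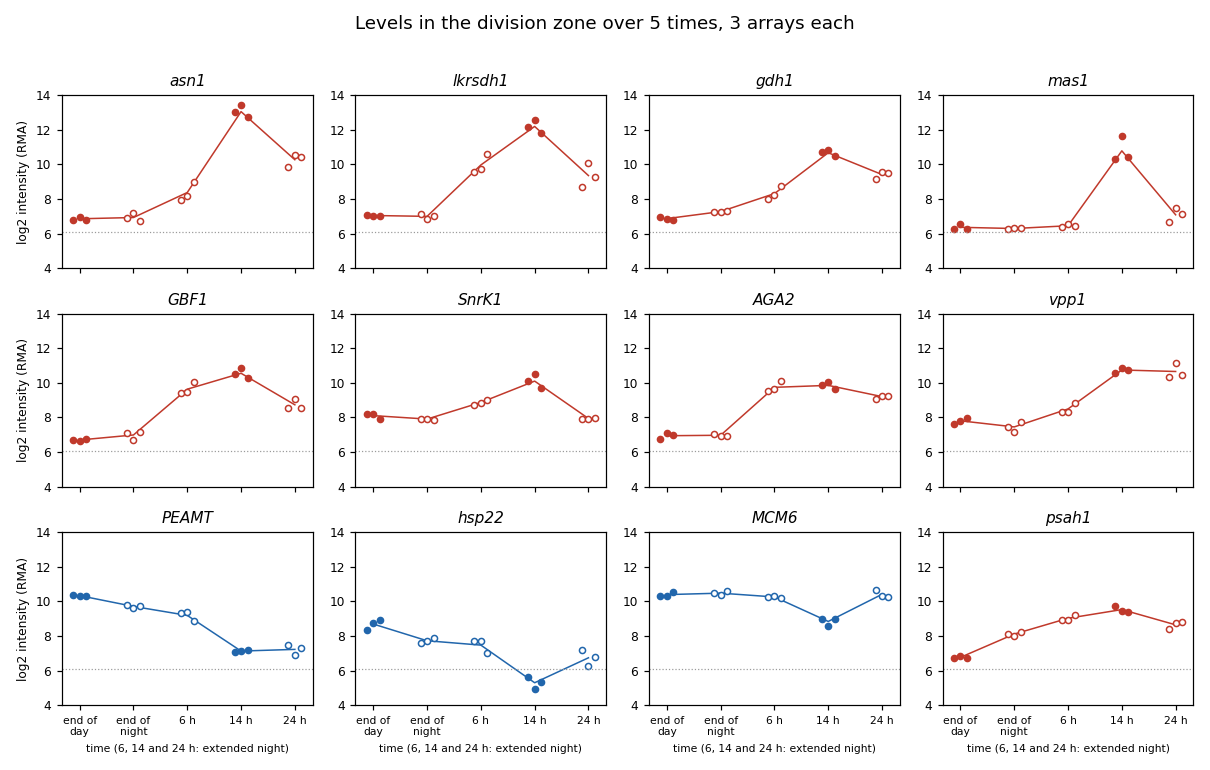
Log2 intensity (vertical axis) of 12 genes in the division zone at 5 times (horizontal axis), 1 point per array, with lines through the group means; filled points are the compared times, open points the others, and the dotted line is the dim level of 6.06. Levels of *asn1*, *mas1* and *SnrK1* peaked at 14 h, *AGA2* had already risen at 6 h, and *MCM6* was lowest at 14 h.

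Among regulators, the bZIP gene *GBF1*, which binds G-box promoter elements, rose most. It went from 6.68, 6.63 and 6.78 to 10.52, 10.85 and 10.30, a rise of 3.86 ± 0.18 (adjusted p = 2.4e-17), and most of that was already there at 6 h, at 9.39, 9.47 and 10.05. Of 8 transcription factor genes on a list labelled dark-responsive, 5 were higher and 1 lower, against 20.6% and 24% of all probe sets. The list was matched by gene name and chosen with earlier results of these data known. Its label and count are therefore no evidence of a dark response. The median of the 8 was 0.33. The scarecrow-like gene *Scl1*, below the dim level at the end of the day, rose by 1.82 ± 0.29, and *ohp1*, a partner of the seed factor opaque2, rose by 1.61 ± 0.15. The bZIP gene *obf3.2* went the other way, from 6.99, 6.79 and 6.82 to 5.23, 5.39 and 5.20, and fell by 1.60 ± 0.12 to below the dim level.

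The energy-sensing kinases did not move together. *SnrK1* went from 8.20, 8.20 and 7.92 to 10.09, 10.54 and 9.68, a rise of 2.0 ± 0.16 (adjusted p = 3.2e-12). By 24 h it was at 7.91, 7.94 and 7.97, close to the end-of-day arrays. *akin1*, of the same kinase family, differed by −0.16 ± 0.06 (adjusted p = 0.039), a call that several alternative fits did not give. The growth-promoting kinase *TOR* stood at 8.93, 8.90 and 8.83 and at 9.14, 9.19 and 9.10. Its groups did not overlap, with 14 h above, as for 27.4% of all probe sets. The difference of 0.26 ± 0.11 was not called (adjusted p = 0.054). In 5 alternative fits, array weights and median centring among them, the list of 3 kinases had 2 higher members in place of 1, *TOR* being the added one. Of all probe sets 20.6% were higher in the main fit. Calls over all probe sets were 7170 to 10088 in those 5 fits and 7822 in the main fit.

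Protein breakdown genes split by member. Of 8 vacuolar and cysteine proteases, 5 rose and 2 fell, against 20.6% and 24% of all probe sets. Their median was 0.55, against −0.05 over all probe sets. The cysteine proteases of the *mir3* name rose by 1.11 ± 0.24 (LOC100037824) and 0.94 ± 0.14 (LOC541655). The 2 vacuolar processing enzymes moved in opposite directions: *see2a* went from 6.59, 6.34 and 6.40 to 7.18, 7.37 and 7.16, a rise of 0.79 ± 0.13, and *see2b* from 8.47, 8.71 and 8.79 to 8.01, 7.78 and 7.91, a fall of 0.76 ± 0.11. In each case all 3 arrays of 1 time lay above all 3 of the other, as for 62.7% of all probe sets. The cysteine protease *see1* also fell, by 0.60 ± 0.09.

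Of 16 genes of the proteinase inhibitor and defence list 4 rose and 1 fell, with a median of 0.04; 20.6% of all probe sets rose. The wound-inducible proteinase inhibitor *wip1* was below the dim level at 5.38, 5.27 and 5.43 at the end of the day and reached 10.42, 11.45 and 9.76 at 14 h, a rise of 5.18 ± 0.68 (adjusted p = 1.4e-07). It was still at 5.20, 5.26 and 5.42 at 6 h. The cystatins *psei1* (1.14 ± 0.18) and *cpi2* (0.95 ± 0.17), which inhibit cysteine proteases, rose less, and *cc3* (0.88 ± 0.15) rose at a level near the dim one. The ribosome-inactivating protein *rip2* behaved like *mas1* in time. It was at 5.00, 4.64 and 4.94 at the end of the day, 8.10, 9.06 and 8.08 at 14 h (3.55 ± 0.41, adjusted p = 1.1e-08), and 5.15, 5.06 and 4.86 at 24 h.

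The 2 alkaline α-galactosidase genes named here rose early. The alkaline α-galactosidase gene *AGA2*, whose enzyme family frees galactose from raffinose-type sugars, went from 6.75, 7.11 and 6.97 to 9.86, 10.07 and 9.64, a rise of 2.91 ± 0.15 (adjusted p = 2.4e-16). At 6 h it already stood at 9.51, 9.62 and 10.10, and the step from 6 to 14 h was 0.11 and not called. *AGA3b*, of the same family, rose by 2.33 ± 0.15 and had likewise reached 10.20, 10.26 and 10.79 by 6 h. They were the 2 called genes of 4 listed for starch and galactoside breakdown, where 44.6% of all probe sets were called.

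For sucrose, 5 of 13 genes rose (3 without dim probe sets) and 2 fell, against 20.6% and 24% of all probe sets. The median was −0.01. Sucrose synthase *sus2*, which cleaves sucrose, went from 6.43, 6.20 and 6.30 to 8.50, 8.52 and 8.10, a rise of 2.06 ± 0.17, and its relative *sh1* rose by 0.67 ± 0.12. The sucrose transporter *sut1* rose by 0.76 ± 0.14 and the sugar transporter *mst1* by 0.96 ± 0.15, the latter at a dim level and with a second probe set that was not called (0.13). The vacuolar invertase *ivr2* fell by 1.12 ± 0.29 against the end of the day. Its level was not steady before that: it had stood at 8.93, 9.18 and 9.02 at the end of the night, above the end-of-day arrays at 7.89, 8.14 and 7.91, and came to 7.31, 6.30 and 6.98 at 14 h. The vacuolar sugar transporter *TMT* fell by 1.02 ± 0.16.

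Starch synthesis genes were lower in 6 cases (10 with the compared arrays only) and higher in 1 of 17. Shares of all probe sets were 24% and 20.6%, and the list's median was −0.26. Starch synthase *ss1* fell by 1.03 ± 0.12. Of the genes for ADP-glucose pyrophosphorylase, which makes the starch precursor, *AGP2* (LOC542737) went from 11.73, 11.59 and 11.58 to 10.79, 10.53 and 10.68 and fell by 0.97 ± 0.10, and *GLG1* fell by 0.79 ± 0.09. The third such gene, *sh2*, also fell by 0.79 ± 0.13, at a dim level, and its other probe set gave 0.04. The branching enzyme *sbe1* was the 1 that rose, by 0.71 ± 0.10.

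Glycolysis showed 3 higher and 5 lower genes of 14 (8 lower with array weights), against 20.6% and 24% of all probe sets. The fermentation genes *adh1*, alcohol dehydrogenase, and *pdc3*, pyruvate decarboxylase, fell by 1.08 ± 0.11 and 0.90 ± 0.11, and each had already fallen over the normal night (−0.57 and −0.64). The phosphofructokinase *pfk1* rose by 0.89 ± 0.09, with arrays at 6.49, 6.52 and 6.49 and at 7.31, 7.44 and 7.43. Of 10 respiration genes 2 were higher (1 in some fits without 1 array) and 3 lower, beside the same 20.6% and 24%. The 3 lower ones encode subunits of pyruvate dehydrogenase, the entry to the citric acid cycle: *pdh2* (LOC541705) fell by 0.71 ± 0.14, and the genes named *pdh1* by 0.39 ± 0.12 (LOC732791) and 0.35 ± 0.09 (LOC541699). The alternative oxidase *aox1* (LOC542074) rose by 0.87 ± 0.28 below the dim level.

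Photosynthesis genes split in this tissue. Of 13 genes of the photosystems and light harvesting 3 rose and 5 fell (median −0.22), against 20.6% and 24% of all probe sets. The photosystem I subunit gene *psah1* stood at 6.73, 6.85 and 6.71 at the end of the day and 9.74, 9.43 and 9.41 at 14 h, a rise of 2.76 ± 0.11 (adjusted p = 1.7e-18) that had grown at each sampling, from 8.11, 8.01 and 8.21 at the end of the night. Light-harvesting genes fell: *lhcb6* by 1.58 ± 0.18, although its 3 other probe sets were not called (−0.23 to −0.15), *Cab-m7* by 1.10 ± 0.20 and *Lhcb5-2* by 1.03 ± 0.09. *Lhcb5-2* went down over the night to 7.19, 7.28 and 7.29, up to 8.68, 8.76 and 8.70 at 6 h and down again to 7.50, 7.55 and 7.61 at 14 h. Of 10 Calvin and C4 cycle genes 1 rose and 5 fell (median −0.29), beside the same 20.6% and 24%. The NADP-malate dehydrogenase *mdh6* fell most, by 1.36 ± 0.16.

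The plastid pigment and thiamine list was mostly lower, in 5 of 7 genes with 1 higher (3 lower without replicate 2 of 14 h). Its median was −0.74, and 24% of all probe sets were lower and 20.6% higher. The thiamine genes lost much of their level within the normal night. *thi2* was at 12.79, 12.78 and 12.74 at the end of the day, 9.27, 9.27 and 8.82 at 6 h and 10.31, 9.76 and 10.57 at 14 h, where it was lower than at the end of the day by 2.55 ± 0.23. *thi1* dipped more deeply, to 4.95, 4.90 and 4.86 at 6 h, and was back at 8.77, 7.73 and 8.77 at 14 h against 9.23, 9.17 and 9.22 at the end of the day. Its 14 h difference of −0.78 ± 0.26 (adjusted p = 0.014) was −0.43 and not called without replicate 2 of 14 h. The magnesium chelatase gene *oy1*, of chlorophyll synthesis, fell by 0.83 ± 0.14, and *vp9*, ζ-carotene desaturase, by 0.74 ± 0.10, while the desaturase one step earlier, *pds1*, rose by 0.51 ± 0.08.

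The carotenoid gene with the largest change lay at the far end of that pathway. *BCH2*, a β-carotene hydroxylase, went from 6.67, 6.45 and 6.46 to 9.49, 10.19 and 9.35, a rise of 3.15 ± 0.18 (adjusted p = 1.4e-15). It came between 6 and 14 h, since the 6 h arrays were at 7.08, 6.94 and 6.71.

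Of 11 genes of nitrate and ammonium assimilation, 5 of them dim, 1 rose (2 with array weights or fits of fewer groups) and 3 fell. Their median was −0.11, and 20.6% of all probe sets rose and 24% fell. *nar* went from 7.82, 7.96 and 7.94 to 5.27, 4.91 and 5.38, below the dim level, and fell by 2.72 ± 0.21, while its other probe set gave −0.11 and was not called. Of the glutamine synthetases, *gln2* rose by 1.14 ± 0.21 and *gln5* fell by 0.78 ± 0.10.

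Genes of cell division were mostly lower at 14 h. Of 20 cell cycle and DNA replication genes, 14 fell (24% of all probe sets did) and 3 rose, with a median of −0.54 against −0.05. The replication clamp gene *pcna1* went from 11.23, 11.28 and 11.42 to 9.75, 9.49 and 9.61, a fall of 1.69 ± 0.33 (adjusted p = 9.2e-05). Its copy *pcna2* went from 11.73, 11.69 and 11.71 to 10.09, 9.73 and 10.19, a fall of 1.70 ± 0.55 (adjusted p = 0.012). The lowest end-of-day array of either gene was above the highest 14 h array, as for 35.2% of all probe sets. Probes of such close relatives may read each other's RNA.

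The replicative helicase subunits fell with them. *MCM6* went from 10.33, 10.33 and 10.52 to 8.99, 8.56 and 8.97, a fall of 1.55 ± 0.42 that all 3 of its probe sets gave (−1.58 to −1.53), and *MCM7* fell by 1.36 ± 0.40. Of the origin recognition complex, which marks where replication starts, *orc2* fell by 1.06 ± 0.19, *orc4* by 0.90 ± 0.10 and *orc1* by 0.85 ± 0.20, whereas *orc3* differed by 0.07 and was not called. The spindle checkpoint gene *mad2* fell by 0.94 ± 0.17, and the DNA repair gene *rad51a* by 0.77 ± 0.23.

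The 3 genes that rose include 2 with the opposite role in the cycle. The retinoblastoma-related genes *rrb2* and *rrb1*, whose proteins hold back entry into DNA synthesis, rose by 0.77 ± 0.16 and 0.31 ± 0.08. The cell cycle kinase *cdc2* went from 10.92, 10.80 and 10.82 to 11.40, 11.43 and 11.41, a rise of 0.56 ± 0.12. Of the mitotic cyclins, *cyc2* fell by 0.54 (adjusted p = 0.037), and *cyc1* (−0.54 ± 0.23, adjusted p = 0.054) and *cyc3* (0.09 ± 0.32) were not called.

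The falls came between 6 and 14 h. Over the normal night 0 of the 20 genes rose and 1 fell (1.98% and 4.53% of all probe sets did, 6.51% together), and over the next 6 h none was called (3.14% and 0.911%, 4.06% together). From 6 to 14 h 3 rose and 13 fell (16.4% and 16.8%, 33.1% together). From 14 to 24 h 9 rose and 0 fell (13.5% and 12.4%, 25.9% together), and *MCM6* was back at 10.66, 10.32 and 10.25. At 24 h *mad2* was still lower than at the end of the night, by 0.58, and *rad51b* by 0.33. The count of all probe sets for that last step was 4540, and 3012 without replicate 2 of 14 h.

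Chromatin and protein synthesis genes were less uniform. *nfd106*, named as a chromatin assembly factor of group D, went from 11.53, 11.31 and 11.50 to 9.38, 8.69 and 9.28, a fall of 2.33 ± 0.49 (adjusted p = 0.00022). Of 4 histone genes 1 fell, near the 24% of all probe sets. This was *his2b5*, by 1.19 ± 0.41, a call lost without replicate 2 of 14 h (−1.08). Of 19 cytosolic ribosomal protein genes 1 rose and 3 fell, against 20.6% and 24% of all probe sets. Their median of −0.05 was the same as over all probe sets, and the number of falls depended on the fit. It was 1 in every fit without 1 of the compared arrays, 7 with the compared arrays only, 8 with array weights and 9 with division zone arrays only. *rps21b* fell by 0.50 ± 0.16 and *RPS10* rose by 0.39 ± 0.08. The acidic ribosomal protein gene *rpp2a-3* was at 11.38, 11.30 and 11.45 and at 10.44, 10.31 and 10.52 and had the largest difference of the list, −0.95 ± 0.39, which was not called (adjusted p = 0.05) but was in 6 of the alternative fits.

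**Figure D3:**
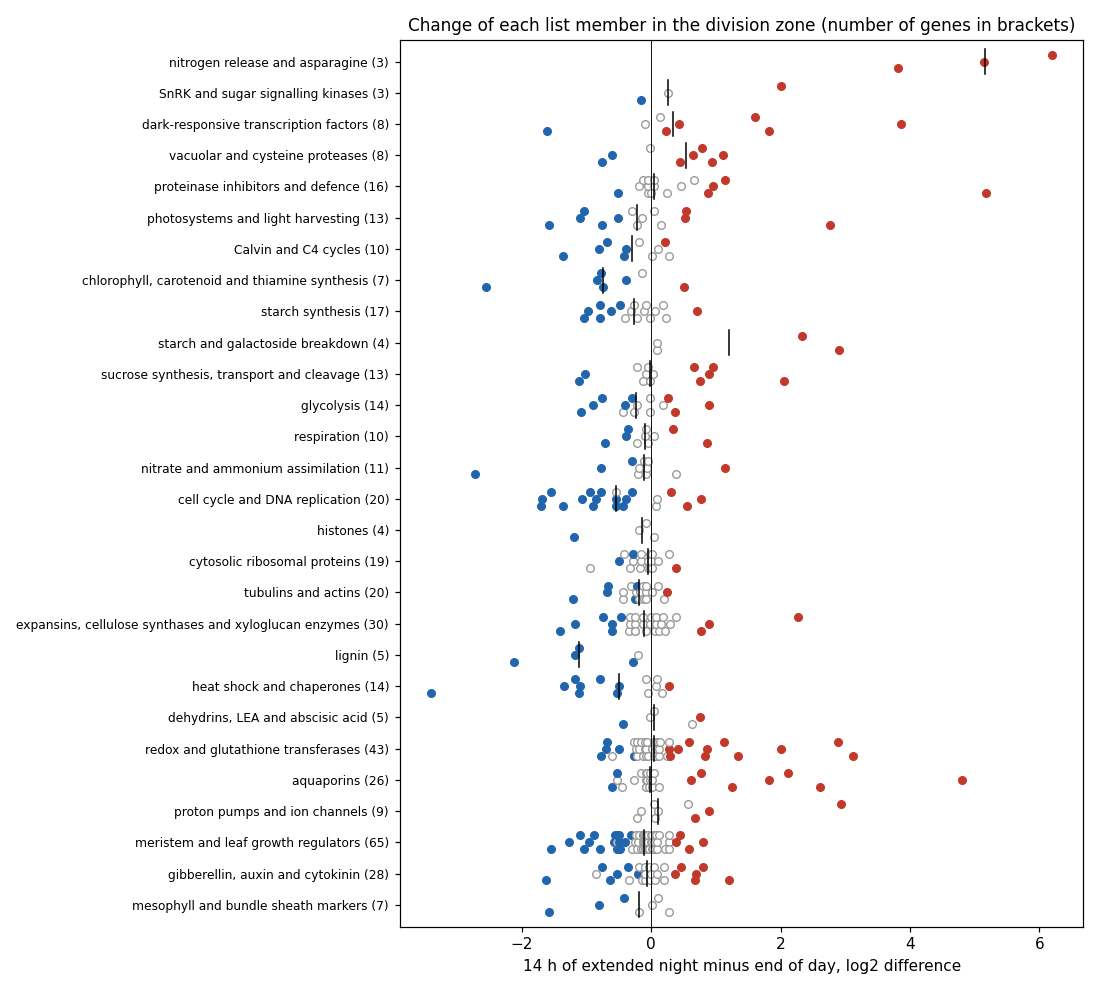
Log2 difference between 14 h of extended night and the end of the day in the division zone (horizontal axis) for every gene of the 28 lists with at least 3 genes (rows). Filled points were called, red higher and blue lower, open points were not, and the black bar is the list's median. Medians run from −1.11 for lignin to 5.15 for nitrogen release and asparagine.

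The cytoskeleton list held tubulins, profilins and actin-depolymerizing factors. Of its 20 genes 1 rose and 5 fell (median −0.18), against 20.6% and 24% of all probe sets. The falls were 3 without replicate 2 of 14 h, 8 with the compared arrays only and 9 with division zone arrays only. The γ-tubulin genes, which nucleate microtubules, fell: *tubg2* from 8.54, 8.45 and 8.39 to 7.40, 6.99 and 7.38, by 1.20 ± 0.18, and *tubg1* by 0.66 ± 0.10, with 1 of its 4 probe sets not called (0.10). The β-tubulin *TUBB2* fell by 0.68 ± 0.16.

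Wall genes ran from large rises to large falls. Of 30 expansin, cellulose synthase and xyloglucan enzyme genes 3 rose and 6 fell (median −0.10), against 20.6% and 24% of all probe sets. With array weights, the compared arrays only or division zone arrays only, 5 to 7 of them were higher and 11 or 12 lower. The expansin *EXPA5*, of the family that loosens walls, went from 7.06, 7.06 and 7.0 to 9.57, 9.47 and 8.89, a rise of 2.27 ± 0.21 (adjusted p = 1.9e-10), and was at 6.59, 6.59 and 6.81 by 24 h. The expansin *expB4* also rose, by 0.77 ± 0.17, while *expa2* fell by 1.41 ± 0.18, *expB3* by 1.18 ± 0.21 and *expa1* by 0.74 ± 0.30; the other 6 named expansins of the list were not called. Also lower were the cellulose synthases *cesa6* (by 0.61 ± 0.14), *cesa7* (by 0.60 ± 0.15) and *cesa3* (by 0.46 ± 0.08).

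Lignin genes fell in 4 of 5 cases (24% of all probe sets did), with a median of −1.11. The largest was *cncr1*, cinnamoyl-CoA reductase, from 8.34, 8.20 and 8.13 to 6.25, 5.78 and 6.28, a fall of 2.12 ± 0.21 (adjusted p = 3.7e-10). *BM1*, the cinnamyl alcohol dehydrogenase of the last step to lignin units, fell by 1.17 ± 0.19 and *4CL*, 4-coumarate:CoA ligase, by 1.11 ± 0.16. The 4th, *ccr2*, fell by 0.28 ± 0.09 below the dim level. From 14 to 24 h 4 of the 5 rose again (13.5% of all probe sets did).

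Heat shock and chaperone genes were lower in 8 of 14 cases, with 1 higher (0 in some fits without 1 array). Shares of all probe sets were 24% and 20.6%, and the list's median was −0.50. The small heat shock gene *hsp22* went from 8.37, 8.77 and 8.93 to 5.60, 4.93 and 5.35, below the dim level, and fell by 3.40 ± 0.27 (adjusted p = 4.1e-12). Part of the fall lay in the normal night, at whose end the arrays were at 7.59, 7.71 and 7.87. The chaperonins of mitochondria fell, *CPN60II* by 1.34 ± 0.37 and *CPN60I* by 1.18 ± 0.47, the latter not called when any 1 of the 6 arrays was left out. The endoplasmic reticulum chaperones *bip1* and *bip2* fell by 1.11 ± 0.22 and 1.09 ± 0.19. The growth settings were warmer by day than by night, and the part of temperature in these falls was not tested. Of 5 dehydrin and abscisic acid genes, *dhn1* rose by 0.75 ± 0.13 at a dim level and *dhn2* fell by 0.43 ± 0.13, a fall not called without replicate 2 of 14 h (−0.31).

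Of 43 redox genes 11 rose and 5 fell, against 20.6% and 24% of all probe sets. The 5 became 8 with array weights or fits of fewer groups, and the median was 0.05. The catalase *CAT3*, which breaks down hydrogen peroxide, went from 6.89, 6.94 and 6.90 to 9.88, 10.35 and 9.85, a rise of 3.12 ± 0.17 (adjusted p = 6e-16), and *cat1* rose by 1.12 ± 0.10. The glutathione transferase *gst30* rose from below the dim level, 4.84, 4.84 and 4.68, to 8.76, 7.47 and 6.79. Its 14 h arrays spread widely but lay above the end-of-day ones (as for 27.4% of all probe sets), with a difference of 2.89 ± 0.37. *gst17* rose by 1.34 ± 0.15, and the metallothionein-like *mtl2* by 2.01 ± 0.21, with a second, dim probe set at 0.02. The iron store ferritin rose in both of its genes, *fer1* by 0.87 ± 0.10 and *fer2* by 0.83 ± 0.09.

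Water channels of the vacuole and the plasma membrane gave some of the largest rises. Their list of 26 had 7 higher and 3 lower, against 20.6% and 24% of all probe sets, and a median of −0.02. The lower ones were 1 without replicate 2 of 14 h and 5 or 6 with array weights or fits of fewer groups. The vacuolar channel *tip3a*, of a type known from seeds, went from 6.44, 6.36 and 6.11 to 11.07, 11.81 and 10.41, a rise of 4.80 ± 0.42 (adjusted p = 4.1e-11). The plasma membrane channel *pip2c* went from 8.95, 9.32 and 9.11 to 11.22, 11.47 and 11.06, a rise of 2.12 ± 0.10, while its dimmer probe set gave −0.12 and was not called. *pip2b*, below the dim level at the end of the day, rose by 2.61 ± 0.14, and *tip1*, abundant throughout, by 1.83 ± 0.11. Levels of *pip2b*, *pip2c* and *tip1* had risen over the normal night (by 0.61, 0.47 and 0.49), again by 6 h and again by 14 h, whereas *tip3a* was still at 6.85, 6.88 and 7.38 at 6 h.

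Of 9 genes for proton pumps, ion exchangers and ion channels 3 rose and 0 fell (median 0.11), against 20.6% and 24% of all probe sets. The 3 act at the vacuolar membrane. The proton-pumping pyrophosphatase *vpp1*, which acidifies the vacuole without using ATP, went from 7.64, 7.80 and 7.98 to 10.59, 10.89 and 10.76, a rise of 2.94 ± 0.20 (adjusted p = 7.6e-14). It held that level at 24 h, at 10.36, 11.18 and 10.44. The exchanger *cax1* rose by 0.90 ± 0.11 and *vpp3* by 0.68 ± 0.10.

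Of 65 developmental regulators 17 fell and 4 rose (7 with the compared arrays only or array weights), against 24% and 20.6% of all probe sets, with a median of −0.11. The epidermal homeodomain gene *ocl3* went from 8.52, 8.71 and 8.45 to 7.25, 6.69 and 7.14, a fall of 1.54 ± 0.17. *rs2*, which keeps meristem genes off in leaf primordia, fell by 1.27 ± 0.24, the growth-regulating factor *GRF2* by 1.10 ± 0.14 and the YABBY gene *yab14* by 1.03 ± 0.24. The co-activator *AN3*, a partner of growth-regulating factors, fell by 0.57 ± 0.16, whereas *GRF4* rose by 0.59 ± 0.09. In this list 31 of 65 genes lay below the dim level on average.

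Of 28 hormone genes 6 were higher and 7 lower, shares near the 20.6% and 24% of all probe sets. In gibberellin synthesis, *an1*, which makes the first committed intermediate, went from 8.96, 8.97 and 8.66 to 7.39, 7.15 and 7.20, a fall of 1.62 ± 0.19, and *d3*, which acts later, rose by 1.20 ± 0.16 below the dim level. Of the cytokinin receptor kinases, *hk3* rose by 0.81 ± 0.14 and *HK1* fell by 0.64 ± 0.14. Of the response regulators behind them, *RR9* rose by 0.68 ± 0.09 and *RR4* fell by 0.75 ± 0.11. The auxin importer *aux1* differed by −0.85 ± 0.35 and was not called (adjusted p = 0.05), though 7 of the alternative fits called it (−0.86 to −0.84). Its groups did not overlap, with 14 h below, as for 35.2% of all probe sets.

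Some of the largest changes belonged to none of these lists. *PEAMT*, phosphoethanolamine methyltransferase, of choline and membrane lipid synthesis, went from 10.39, 10.29 and 10.32 to 7.06, 7.14 and 7.18, a fall of 3.21 ± 0.18 (adjusted p = 2e-15) that held at 24 h (7.50, 6.88 and 7.29). The lipid transfer protein *PLTP* went the other way, from 7.12, 7.63 and 7.44 to 10.33, 10.72 and 10.10, a rise of 2.99 ± 0.28 on its brightest probe set and 2.91 on the next, with 2 dim ones not called. *bx1*, the first enzyme of benzoxazinoid defence compounds, went from 9.43, 9.11 and 9.21 to 7.26, 7.09 and 7.42, a fall of 2.0 ± 0.27, and on to 6.66, 5.94 and 6.14 at 24 h. Also lower were the purine salvage gene *aprt1* (by 1.99 ± 0.20, with a second probe set at 0.08), the plastid dicarboxylate transporter *pDCT2* (by 1.92 ± 0.16) and the aldehyde dehydrogenase *rf2c* (by 1.78 ± 0.19). Of genes with no role annotated here, LOC732827 rose by 3.00 ± 0.19 and LOC542631 fell by 2.0 ± 0.19.

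Most called probe sets carried no gene name: 632 of the 7822 named 1 gene and 7190 did not. The largest rise of all was among those without, probe set Zm.301.1.A1_a_at, at 4.81, 5.02 and 4.62 at the end of the day and 13.02, 13.46 and 13.10 at 14 h (8.38 ± 0.42, adjusted p = 1.3e-16). Zm.10293.1.S1_at rose by 6.77 ± 0.20, and Zm.10180.1.S1_at and Zm.3633.4.A1_at fell by 3.54 ± 0.19 and 3.39 ± 0.18. Both of these falls had begun over the normal night (−1.90 and −1.64).

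The elongation zone, farther up the leaf, was compared over the same times with 2 end-of-day and 3 other arrays, and had 7984 called probe sets (45.5%, with 21.7% higher and 23.8% lower). Of the probe sets higher in the division zone 2817 were also higher there (77.9% of 3614, and 74% of the elongation zone's own), and of the lower ones 3053 (72.6% and 73.1%). Called in opposite directions were 36 and 41. Over the 1108 named genes the differences in the 2 zones had a correlation of 0.879, as a description. The test of the difference between zones called 1151 probe sets (6.56%, with 3.2% higher and 3.36% lower in the division zone's change), and 625 without either 1 of the elongation zone's end-of-day arrays, so the count depends on them. Leaving out arrays of the other zones was an alternative chosen after seeing the data.

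Some division zone changes differed from those in the elongation zone. *EXPA5* rose by 2.27 here and by 0.65 there (difference 1.62 ± 0.32, adjusted p = 0.0013), and *PLTP* by 2.99 and 1.12 (1.86 ± 0.41, adjusted p = 0.0041). *psah1* rose by 2.76 and 1.29 (1.48, adjusted p = 9.8e-07). The gibberellin gene *an1* fell by 1.62 here and stood at 0.20, not called, there (difference −1.82 ± 0.28, adjusted p = 6e-05). *aprt1* fell by 1.99 against −0.49, not called (−1.50 ± 0.29), and *yab14* by 1.03 against 0.26, not called (−1.29, adjusted p = 0.024). In the other direction, *SnrK1* rose less here than in the elongation zone, by 2.0 and 3.37 (−1.37, adjusted p = 0.00026). The nitrate reductase *NNR1* was below the dim level in the division zone at both times, with overlapping groups (−0.08 ± 0.21), and fell by 3.12 in the elongation zone. The lists of nitrogen release (3 genes) and of the cell cycle (20 genes) gave 0 calls of a difference between these 2 zones. Only 6.56% of all probe sets were called in that test, so 0 calls do not show equal changes. With array weights *pcna2* (1.24) and *gdh1* (0.68) were called, and *pcna2* also in the fit of these 2 zones alone (1.19).

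The mature zone differed more. It had 10678 called probe sets (60.8%, with 34% higher and 26.8% lower), and the difference from the division zone was called for 9162 (52.2%, with 22.5% higher and 29.7% lower). Of the division zone's higher probe sets 2285 were also higher there (63.2% of 3614) and 503 were lower (13.9%), and of the lower ones 2108 were lower (50.1%) and 660 higher (15.7%). The correlation over named genes was 0.475. The mature zone's end of the day also has 2 arrays, and 20 of the 66 reporter probe sets were called in this test of a difference, against 0 in that with the elongation zone, and their part in that count was not tested.

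Named genes moved in opposite directions at the leaf base and in mature tissue. *EXPA5* rose by 2.27 at the base and fell by 2.79 in mature tissue (difference 5.05 ± 0.32, adjusted p = 3.8e-14). *PLTP* rose by 2.99 and fell by 1.36 (4.35 ± 0.41), and *vpp1* rose by 2.94 and fell by 1.07 (4.01 ± 0.29). *BCH2* rose by 3.15 at the base and was at −0.15, not called, in mature tissue (3.30 ± 0.26). *adh1* fell by 1.08 at the base and rose by 1.57 in mature tissue (−2.65, adjusted p = 5.9e-14).

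Some shared changes differed in size, and other changes were called only at the base or only in mature tissue. *lkrsdh1* rose by 5.15 and by 2.52 (difference 2.63 ± 0.40, adjusted p = 1.9e-06), while *PEAMT* fell by 3.21 here and by 5.03 there. *AGA3b* rose less at the base than in mature tissue, by 2.33 and 5.19 (−2.87, adjusted p = 4.1e-12), and so did *Scl1*, by 1.82 and 5.21 (−3.39, adjusted p = 1e-07). Among replication genes not called in mature tissue, *pcna1* differed there by 0.70 (difference between zones −2.39, adjusted p = 0.00018) and *MCM6* by 0.05 (−1.60, adjusted p = 0.033). The difference between zones was not called for *pcna2* (−1.89, adjusted p = 0.055) or *MCM7* (−1.20, adjusted p = 0.09). The cellulose synthase *cesa2* and the fatty acid desaturase *FAD8* were not called at the base (−0.24 ± 0.25 and 0.18 ± 0.13) and fell in mature tissue by 4.47 and 3.88. For *asn1* the difference from the mature zone was 0.72 and not called (adjusted p = 0.41).

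**Figure D4:**
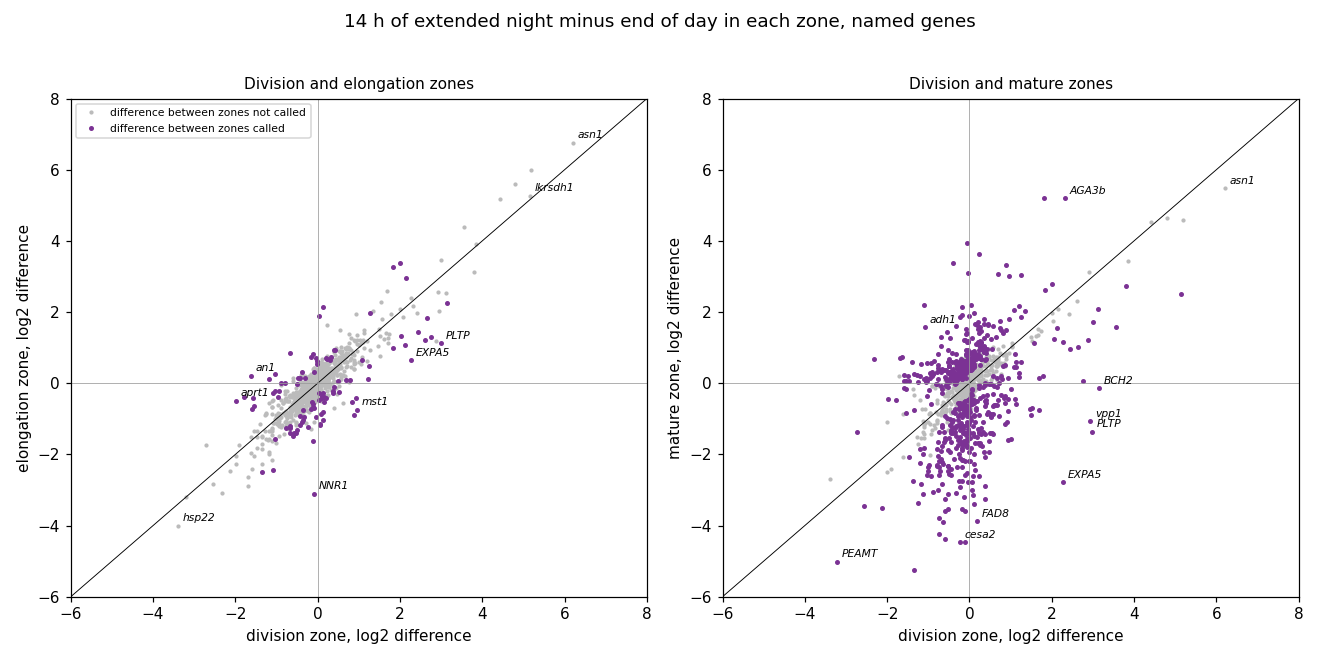
Log2 difference between 14 h of extended night and the end of the day for 1108 named genes (1 point each) in the division zone (horizontal axes) against the elongation zone (left) and the mature zone (right). Purple points have a called difference between zones and the diagonal marks equal change; *EXPA5* lies at 2.27 and 0.65 on the left and at 2.27 and −2.79 on the right.

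A comparison with no array in common is that of 24 h of extended night with the end of the night, which share the other clock hour. It called 5762 probe sets in the division zone (32.8%, with 17.9% higher and 15% lower). Of the 3614 probe sets higher at 14 h 2030 were also higher at 24 h (56.2%, and 64.7% of the 3137 higher at 24 h), and 99 were lower. Of the 4208 lower at 14 h 1618 were lower at 24 h (38.5%, and 61.6% of 2625), and 203 were higher. The count at 24 h was 9009 with array weights and 8693 in a fit of the division zone alone.

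Genes of nitrogen release were higher in both comparisons, *asn1* by 6.20 and 3.34, *lkrsdh1* by 5.15 and 2.36 and *gdh1* by 3.81 and 2.14. *vpp1* (2.94 and 3.20), *PLTP* (2.99 and 3.07) and *PEAMT* (−3.21 and −2.48) had differences of like size at the 2 clock hours. *bx1* was lower in both, by 2.0 at 14 h and 3.14 at 24 h. Other genes were called at 14 h and not at 24 h: *mas1* (4.42 and 0.79), *rip2* (3.55 and 0.00), *gst30* (2.89 and −0.33), *EXPA5* (2.27 and −0.44), *SnrK1* (2.0 and 0.04) and *AGA3b* (2.33 and 0.21). So were the replication genes *pcna1* (−1.69 and −0.61), *MCM6* (−1.55 and −0.07) and *MCM7* (−1.36 and 0.07). The difference between the 2 comparisons was not tested. *thi1* was called in opposite directions, at −0.78 and 1.92.

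**Figure D5:**
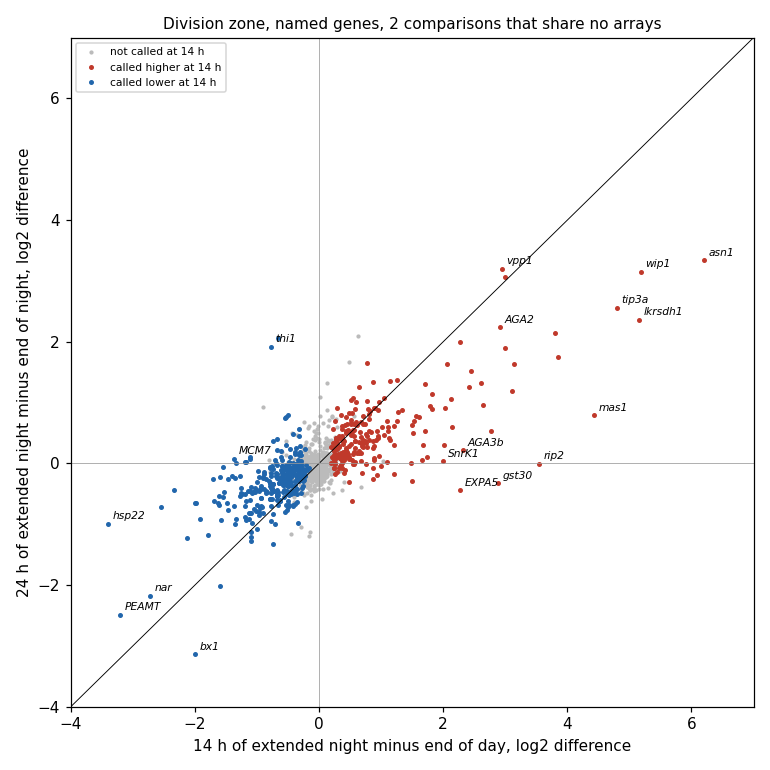
Log2 difference of 1108 named genes in the division zone for 14 h of extended night minus end of day (horizontal axis) and for 24 h of extended night minus end of night (vertical axis), 1 point per gene, coloured by the call at 14 h; the diagonal marks equal differences. *vpp1* lies near the diagonal at 2.94 and 3.20, *mas1* below it at 4.42 and 0.79, and *bx1* at −2.0 and −3.14.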

How the data were processed

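RNA was read on Affymetrix maize arrays. The deposited values are log2 intensities, which the authors made with RMA (background correction, quantile normalization and probe summary) per the submitters' processing notes (version not given in the sources used here). They were used as deposited (2.56 to 14.41). Of 17734 probe sets, 113 control and 66 reporter ones were left out and 17555 tested. Group means of 15 groups (42 arrays; 3 columns held no values) were fitted with limma 3.58.1 in R 4.3.3 (27 residual and 4.01 prior degrees of freedom), and p-values adjusted by Benjamini-Hochberg within each of 11 comparisons. Residuals of same-numbered arrays correlated by −0.08 to −0.03, so the replicate number was not a block.

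The array annotation names 1 gene for 1452 probe sets, or 1108 genes, of which 1060 matched the RefSeq table of Zm-B73-REFERENCE-NAM-5.0 (names only). The brightest probe set stood for a gene. Members, lists and tests were chosen with earlier results of these data known. Named are the 12 largest called rises and falls with groups that did not overlap, up to 4 called genes of each list and 6 of each zone difference; other list members were named after their values were seen. The fit was also run on simulated data with 200 changed probe sets. Far more were called here, so that run cannot vouch for these calls. The small number of arrays limits the precision. Alternatives were array weights, fewer arrays, other scalings and filters, the replicate block and each array left out.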

Additional observations from a re-analysis of the deposited data

Results flagged for a closer look

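For 24 genes chosen by the naming rule, the change in the division zone differed from that in another zone by limma's test of the difference itself, at an adjusted p under 0.05. Values are the division zone's log2 change minus that of the other zone; BCH2, PLTP, aprt1, rf2c, NNR1, tip2a, aox1 (LOC542074) and EXPA5 stand in both groups below. No explanation was tested.

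Against the elongation zone, 10 genes met this rule. Higher in the division zone's change were *NNR1* (3.04), *PLTP* (1.86), *aox1* (LOC542074, 1.78), *EXPA5* (1.62) and *BCH2* (0.88). Lower were *tip2a* (−2.01), LOC542000 (−1.84), *an1* (−1.82), *aprt1* (−1.50) and *rf2c* (−1.39). *NNR1*, *tip2a* and LOC542000 were not called in the division zone (−0.08, 0.12 and 0.04) and gave −3.12, 2.13 and 1.88 in the elongation zone. The alternative oxidase *aox1* gave 0.87 and −0.91. The calls of *BCH2*, LOC542000 and *tip2a* were lost in several fits that left out 1 array, and that of *aox1* without replicate 2 of the elongation zone's end of the day (1.21).

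Against the mature zone, 22 genes did. The division zone's change was higher for the wall genes *EXPA5* (5.05) and *cesa2* (4.23), for *PLTP* (4.35), LOC541918 (4.35), *FAD8* (4.06), *vpp1* (4.01) and *BCH2* (3.30). It was also higher for *lkrsdh1* (2.63), *rip2* (1.98), *PEAMT* (1.82), *NNR1* (1.64), *tip2a* (1.62), *aox1* (1.44), *cncr1* (1.38), LOC732827 (1.27), *gdh1* (1.06), *CAT3* (1.04) and *thi2* (0.91). It was lower for *nfd106* (−3.02), *aprt1* (−1.53), *nar* (−1.34) and *rf2c* (−1.30). LOC541918 was far below the dim level in the division zone at both times, and fell by 4.46 in the mature zone. The calls of *gdh1* (0.74 without replicate 1 of the mature zone's 14 h, 0.71 without replicate 2 of its end of the day), *rip2* (1.45 without the latter) and *thi2* (0.73 to 0.86 in 4 such fits) were lost. Leaving out arrays of the elongation and mature zones was chosen after seeing the data.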

How the results depend on the processing

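Of 1705 values of named genes under the alternatives, 1657 kept their direction and side of the threshold, 33 lost the call, 15 gained one and 0 reversed. The division zone's count of 7822 ran from 6589 to 7320 when each of the 6 arrays was left out, and was 10088 with array weights, 9759 with division zone arrays alone and 7781 with the replicate number as a block, although same-numbered arrays did not deviate together. Under the block no count of the comparisons over time or between zones moved by over 1.5 times, and 3 between-zone values gained a call (*nar* −1.04 and *vpp1* 0.96 against the elongation zone, *pDCT2* 0.47 against the mature zone). The count of differences between the division and elongation zones (1151) depended on the fit: 3736 with array weights, 2781 in a fit of those 2 zones alone (chosen after seeing the data), and 625 to 1122 with 1 array left out. Counts over time also moved. End of night minus end of day (1142) was 4792 with weights, 2571 with division zone arrays alone, and 732, 663 and 582 on dropping end-of-day replicate 1, end-of-day replicate 2 or end-of-night replicate 2. For 6 h minus end of night (712) it was 5257 with weights, 1398 with division zone arrays alone, and 430 and 388 on dropping end-of-night replicate 2 or 6 h replicate 3. Dropping end-of-night and 6 h arrays was chosen after seeing the data. 14 h minus 6 h (5819) was 8884 with weights. The cause was not tested.

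Other probe sets of the same gene, none called, had the opposite sign for *aprt1* (0.08 against −1.99), *sh2* (0.04 against −0.79), *NR* (0.01 against −0.30), *tubg1* (0.10 against −0.66) and *pip2c* (−0.12 against 2.12). Calls of *akin1*, *gpc4*, *NR*, *RPL10*, *CPN60I* and *PRO4* were lost in some fits with 1 array left out. Signals below the dim level limit the size of changes, and 3 arrays a group limit the precision.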
